A study of Rattus norvegicus with 8 samples.

Results

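The genes of fatty acid and triglyceride synthesis were examined in liver RNA of 21-day-old male Sprague-Dawley rats. They were a list of 36 genes, chosen by name for their place in lipogenesis, desaturation, NADPH supply and triglyceride handling. The list was made with earlier results of these data known. Of the 36 genes, 33 had a probe that could be named on the array and 29 were bright enough to be tested, out of 10566 genes or unnamed probes tested in all. Srebf1, Pnpla3 and Pgd matched no probe through the accessions used for naming. Acaca and Acacb, the 2 acetyl-CoA carboxylases, and the lipin gene Lpin1 were not well above background on any of the 8 arrays, and Lpin2 was so on 1 array only, so these 4 genes have no values here.

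Control pups came from dams given corn oil alone. The 0.5MAhR pups came from dams given, in corn oil, a mixture of methyl mercury, polychlorinated biphenyls and organochlorine pesticides (0.5 mg/kg/day) plus agonists of the aryl hydrocarbon receptor (AhR), namely non-ortho-PCBs, polychlorinated dibenzofurans and dibenzodioxins, with a total dose of 6.3 ng/kg/day in TCDD equivalents. Dams were dosed through gestation and lactation, and both groups stayed with their birth mothers. Each group had 4 arrays, numbered 5 to 8 for Control and 1 to 4 for 0.5MAhR, and each array carried the pooled RNA of 2 pups in Cy5 against universal reference RNA of 14 rat cell lines in Cy3. Values are log2 ratios of liver over reference after normalisation within each array, so that 0 is the usual ratio of spots of like intensity and not a measured equal level. The sources used here do not say which litters the pups came from, and p-values measure only how much these pools varied. The question was whether these genes differed between the offspring of mixture-dosed and vehicle-dosed dams.

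Hepatic fatty acid synthesis starts from citrate that leaves the mitochondrion and is cleaved to acetyl-CoA. Acetyl-CoA carboxylase makes malonyl-CoA, fatty acid synthase builds palmitate with NADPH, and elongases and desaturases remodel it before acyltransferases attach fatty acids to glycerol to form triglyceride. In rat liver the pathway is known to be low during suckling, when milk supplies fat, and to increase as pups take up solid food at weaning. Insulin acting through SREBP-1c, the product of Srebf1, and glucose acting through ChREBP, the product of Mlxipl, are its best-known transcriptional drivers.

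The median Cy5 signal was 81 to 94 intensity units over the arrays, with median backgrounds of 68 to 73, and no spot was saturated. The arrays lay in 2 columns of the slide, as the position numbers of the scans show, with 2 arrays of each group in each column. Control 5, Control 7, 0.5MAhR 2 and 0.5MAhR 4 were in column 1 and the other arrays in column 2. The columns differed past an adjusted p of 0.05 for 56.9% of all genes tested and for 13 of the 29 members (44.8%). Of these members 5 were higher in column 2 (28.1% of all genes) and 8 were lower (28.8%). Slide column was therefore a term of the fit, and values are also given relative to the mean of an array's own column. The hepatocyte marker Alb, the gene for albumin, had log2 ratios between 8.63 and 9.23 on the 8 arrays. All 6 hepatocyte markers listed were measured. Of the adipocyte markers, Cfd and Retn were well above background on all 4 arrays of each group. Fabp4 was so on 3 control and 4 mixture arrays, with its highest log2 ratio, 1.24, on Control 8. Adipoq was well above background on 1 control array and Lep on no array, and Plin1 matched no probe. In pooled tissue RNA, fewer cells of a type and less RNA per cell cannot be told apart.

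One control pool, Control 6, stood apart for these genes. It had the lowest ratio of all 8 arrays for 18 of the 29 members (62.1%), against 14.3% of all genes tested. Within slide column 2, it was the lowest of the 4 arrays for 20 members (69%), against 23.9% of all genes. For 8 members it lay more than 1 log2 unit below the mean of the other arrays of its column, which was so for 65 genes of the table (0.615%). These 8 were Acly, Acss2, Fasn, Me1, Elovl6, Scd, Fads1 and Fads2, with gaps from -1.06 for Acss2 to -1.69 for Fasn. They span the supply of acetyl-CoA, the synthase, an enzyme of NADPH supply, an elongase and all 3 desaturases listed.

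By step, the median of Control 6 relative to its column mean was -0.92 for desaturation, -0.77 for acetyl-CoA supply, -0.66 for NADPH supply and -0.44 for elongation, and Fasn alone stood at -1.27. The 5 tested genes of glycerolipid assembly had a median of 0.0089 on the same array, and the 3 genes of droplets, lipolysis and export had 0.082. The regulators had a median of -0.26 and uptake and activation one of -0.19, with Acsl3 at -0.74. The lowest medians on Control 6 thus lay in the steps that make and remodel the fatty acid chain. The medians of glycerolipid assembly and of droplets, lipolysis and export were near 0. Of the latter step, Plin2 stood at 0.32, Pnpla2 at 0.082 and Mttp at -0.099. Over all genes tested, the median of that array was 0.0063. A list of 10 sterol-responsive genes, among them Hmgcs1, Sqle, Idi1, Fdps, Mvd, Lss and Cyp51 of cholesterol synthesis, had a median of -1.60 there.

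Control 8, the other control pool of the same column, lay on the opposite side. It was the highest of its column for 15 members (51.7%), against 29.8% of all genes, and the lowest for none (21.2% of all genes). These counts are not independent of Control 6, which was already the lowest of that column for 20 members. The median of Control 8 relative to the column, whose mean includes Control 6, was 0.50 for both acetyl-CoA supply and desaturation and 0.89 for the sterol genes. The 2 control pools of column 2 were therefore further apart for the synthetic steps than the 2 mixture pools of that column. In column 1 the medians of single steps lay between -0.54 for Fasn on Control 7 and 0.47 for Fasn on 0.5MAhR 2. Because Control 6 enters the control mean of every gene, the differences that rest on it are given below with and without that array. For some genes the difference without Control 8 is given as well. On Control 6, 46.0% of Cy5 spots passed as well above background, within the range of 42.9% to 49.2% over the arrays. That share covers all spots, and the cause of the low values on Control 6 was not tested.

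**Figure D1:**
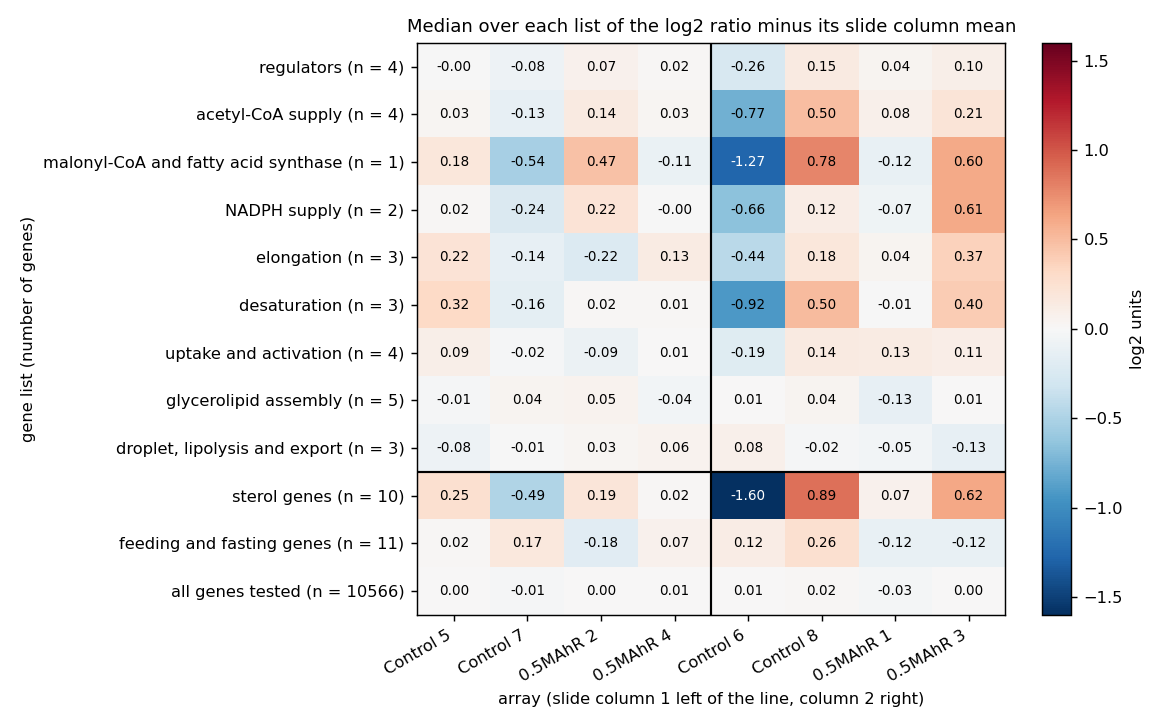
Each cell is the median, over the tested genes of a step or list, of the log2 ratio on an array minus the mean of the 4 arrays of its slide column; blue is lower and red higher than the column mean. Control 6 has the lowest cells of the synthetic steps (desaturation -0.92, acetyl-CoA supply -0.77, Fasn -1.27) and of the sterol genes (-1.60), while glycerolipid assembly stays at 0.0089 there.

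Promoters of the genes that lay more than 1 log2 unit lower on Control 6 are shown because those members moved together on 1 array. They were therefore chosen by their values, and the RefSeq table used (assembly GRCr8) held 6 of the 8. Each line gives the 150 bases before the annotated start, 5′ to 3′ on the gene's strand, with GC boxes (GGGCGG) and CCAAT boxes (CCAAT) of either strand in capitals. In genome coordinates these are chr10:85963632-85963781 (minus strand) for Acly, chr3:164464553-164464702 (plus) for Acss2, chr8:96540245-96540394 (minus) for Me1, chr1:253231732-253231881 (minus) for Scd, chr1:216252542-216252691 (plus) for Fads1 and chr1:216172034-216172183 (minus) for Fads2.
Acly: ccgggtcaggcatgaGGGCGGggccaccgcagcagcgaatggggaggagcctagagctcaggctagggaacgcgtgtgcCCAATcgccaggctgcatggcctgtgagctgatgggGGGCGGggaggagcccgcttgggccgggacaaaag
Acss2: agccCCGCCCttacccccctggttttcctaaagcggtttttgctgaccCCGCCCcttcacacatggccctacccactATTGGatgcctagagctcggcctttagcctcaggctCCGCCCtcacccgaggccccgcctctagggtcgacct
Me1: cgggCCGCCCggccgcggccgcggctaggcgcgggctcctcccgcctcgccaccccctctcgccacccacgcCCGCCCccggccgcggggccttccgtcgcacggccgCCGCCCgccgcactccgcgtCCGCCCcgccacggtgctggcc
Scd: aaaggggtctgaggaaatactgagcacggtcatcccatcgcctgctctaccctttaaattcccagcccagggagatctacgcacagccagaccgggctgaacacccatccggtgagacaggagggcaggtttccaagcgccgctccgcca
Fads1: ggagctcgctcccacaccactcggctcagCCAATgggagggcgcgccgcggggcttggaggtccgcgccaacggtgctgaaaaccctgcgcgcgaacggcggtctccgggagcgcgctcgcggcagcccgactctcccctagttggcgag
Fads2: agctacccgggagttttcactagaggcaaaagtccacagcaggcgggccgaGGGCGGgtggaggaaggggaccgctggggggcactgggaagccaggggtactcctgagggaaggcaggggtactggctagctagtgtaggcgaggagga

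The shown windows differ in what they hold. Acly and Acss2 have both boxes, Me1 and Fads2 have GC boxes only, Fads1 has a CCAAT box only and Scd has neither. The RefSeq table held 30 of the 36 members and 27457 genes in all, and 250 bases before each start were searched on both strands. Fasn, Acaca, Elovl6, Dgat1, Dgat2 and Mttp were not in it and were not searched. A GC box was found in 18 of the 30 members (60%), against 32.4% of all genes. The CCAAT box was found in 14 (46.7%), against 34.3%. The E-box CACGTG was found in 2 members, Elovl5 and Plin2 (6.67%), against 5.79%, and the dioxin response element core GCGTG in 10 (33.3%), against 27.2%. The letters TCACNCCAC, a core of the sterol regulatory element, were found in none of the 30 and in 0.976% of all genes. At so low a share over all genes, a count of 0 among 30 does not set the members apart. Matches of different motifs overlapped at 1 place among the members. These are matches of letters only and show no binding.

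None of the 29 tested members passed an adjusted p of 0.05 between 0.5MAhR and Control, where 5 of 10566 genes did (0.0473%), Cyp1a1, the classical AhR target, among them. At an unadjusted p under 0.05, 2 members were higher in the mixture group, Me1 and Thrsp (6.9%, against 3.5% of all genes), and no member was lower (2.84% of all genes). The difference was above 0 for 20 of the 29 members (69%, against 46.8% of all genes), and its median was 0.11 on the log2 scale, against -0.0077 over all genes tested. Without Control 6, 11 members had a difference above 0 (37.9%, against 47.1%) and the median was -0.050. At an unadjusted p under 0.05, Me1 was then higher (3.32% of all genes) and Agpat3 lower (2.39%). The median was 0.071 in slide column 1 and 0.16 in column 2, where Control 6 lies, and 0.0051 without 0.5MAhR 3. Without Control 8 the median was 0.14. In that fit 24 of the 29 members had a difference above 0, where 46.8% of all genes had over all 8 arrays.

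The count at an unadjusted p under 0.05 depended on single arrays. Without Control 8, 8 members reached it, where 6.31% of all genes did in either direction, and all were higher in the mixture group: Thrsp, Slc25a1, Acly, Acss2, Fasn, Me1, Fads1 and Acsl3. Without 0.5MAhR 3, Me1 alone reached it (5.24% of all genes). No member passed the adjusted threshold when any array was left out. The groups overlapped for every member over all 8 arrays, where 0.786% of all genes were higher and 0.53% lower without overlap. Within both slide columns, Me1 and Thrsp were higher without overlap (6.9%, against 3.28%) and Agpat2 was lower (3.45%, against 3.41%).

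**Figure D2:**
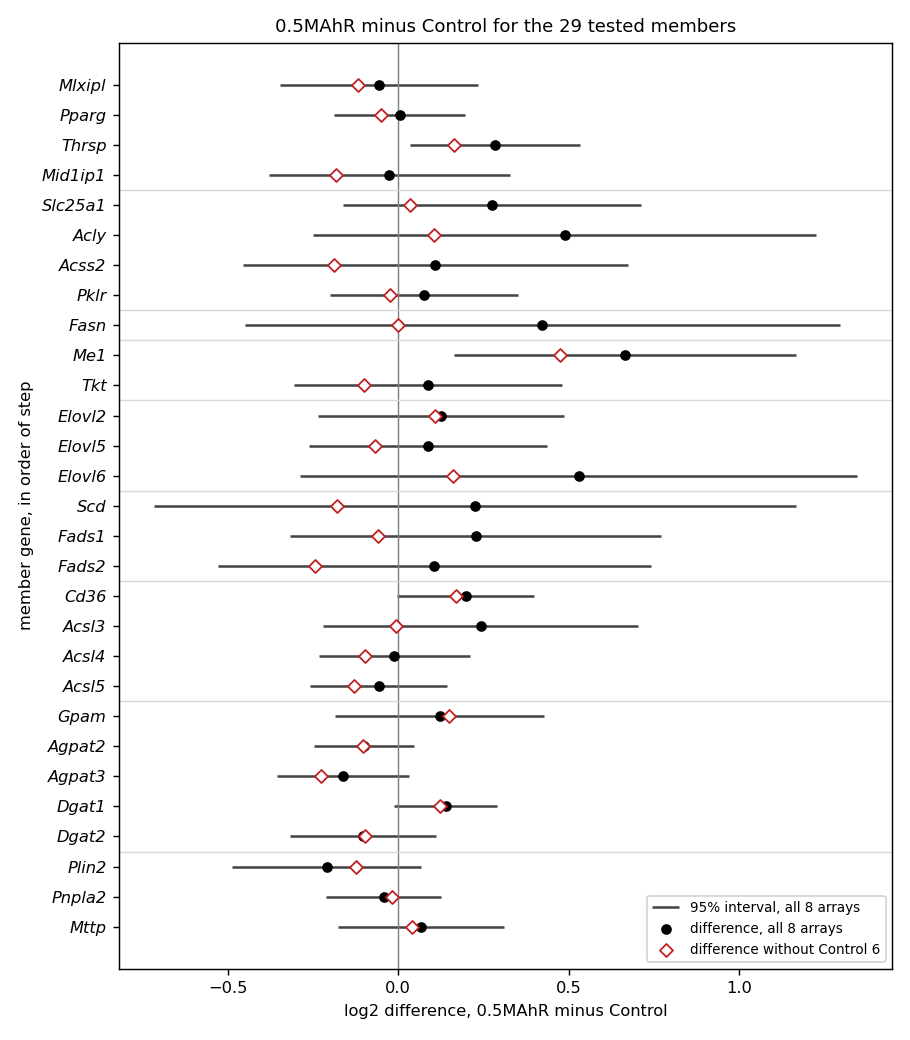
Filled points are the 0.5MAhR minus Control differences of the 29 tested members in log2 units, lines are their 95% intervals from the fit with slide column, and open diamonds are the differences without Control 6. Only the intervals of Me1 (0.16 to 1.17) and Thrsp (0.035 to 0.53) lie above 0, and the diamond of Fasn sits at 0.00020 where its filled point is at 0.42. Without Control 8, which is not drawn, the Fasn difference was 0.82.

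Among the regulators, Thrsp had the smallest p. It encodes a nuclear protein of lipogenic tissues that responds to thyroid hormone and carbohydrate. Its log2 ratios were 4.40, 3.39, 4.28 and 3.93 on Control 5 to 8 and 3.96, 4.60, 4.06 and 4.52 on 0.5MAhR 1 to 4. Within each column both mixture arrays were above both control arrays, but the column 1 arrays of either group were above the column 2 arrays of both. The means were 4.001 ± 0.45 (SD, n = 4) and 4.28 ± 0.32 (SD, n = 4). The difference was 0.28 (SE 0.11, 1.22-fold), with adjusted p = 0.713, and it was 0.21 in column 1 and 0.35 in column 2. Without Control 6 it was 0.16 (SE 0.076) and no longer had an unadjusted p under 0.05, and without Control 8 it was 0.38. The reference RNA is the same on every array, yet its Cy3 signal at the Thrsp probe also differed, higher on the mixture arrays by 0.48 (unadjusted p under 0.05, adjusted p = 0.999), and its part in the result was not tested. In Cy5 alone Thrsp differed by 0.74, and when the ratio was taken from the scanner's processed signals, by 0.021.

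Mlxipl had ratios of 1.61, 0.79, 1.35 and 1.12 on Control 5 to 8 and of 0.63, 1.31, 1.15 and 1.56 on 0.5MAhR 1 to 4. The lowest array was 0.5MAhR 1 and the highest Control 5, so the groups overlapped widely. The difference of -0.056 (SE 0.13, adjusted p = 0.962) was small against that spread, and it was -0.12 without Control 6. Mid1ip1, which encodes a partner of the Thrsp protein that promotes acetyl-CoA carboxylase polymerisation, differed by -0.026 (SE 0.16), and by -0.18 without Control 6. The adipogenic nuclear receptor Pparg differed by 0.0042 (SE 0.085), and its log2 ratio was below 0 on every array, from -1.43 to -1.14.

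All 4 genes of acetyl-CoA supply had differences above 0, none past the threshold. Acly, the ATP citrate lyase that cleaves cytosolic citrate, had log2 ratios of 0.22, -1.47, -0.33 and 0.34 on Control 5 to 8 and of -0.13, 0.55, 0.19 and 0.10 on 0.5MAhR 1 to 4. Control 6 was more than 1 log2 unit below every other array, while Control 5 and Control 8 lay among the mixture arrays. The mean was -0.31 ± 0.83 (SD, n = 4) in controls and 0.18 ± 0.28 (SD, n = 4) in the mixture group. The difference of 0.49 (SE 0.33, adjusted p = 0.885) became 0.10 without Control 6 and 0.83 without Control 8. Slc25a1, the mitochondrial citrate carrier, went from 0.28 to 0.034 without Control 6 and to 0.48 without Control 8. Acss2, which activates acetate, went from 0.11 to -0.19 without Control 6 and to 0.39 without Control 8. The pyruvate kinase gene Pklr went from 0.075 to -0.025 without Control 6.

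Fatty acid synthase, Fasn, was the one measured gene of its step. Its ratios were 0.49, -1.87, -0.22 and 0.17 on Control 5 to 8 and -0.72, 0.78, -0.0030 and 0.21 on 0.5MAhR 1 to 4. Control 6 was again the lowest, and the other 3 control arrays lay within the range of the mixture arrays. The group means were -0.36 ± 1.05 (SD, n = 4) and 0.067 ± 0.62 (SD, n = 4). The difference was 0.42 with a 95% interval from -0.45 to 1.29 (adjusted p = 0.915). Without Control 6 it was 0.00020 (SE 0.28), and without Control 8 it was 0.82. The 95% interval over all 8 arrays holds both no difference and one of more than 1 log2 unit, which these arrays cannot tell apart.

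Me1 had the largest difference of any member. It encodes cytosolic malic enzyme, which makes NADPH for the synthase. On Control 5 to 8 its log2 ratios were -1.08, -1.56, -1.38 and -0.83, and on 0.5MAhR 1 to 4 they were -0.77, -0.69, 0.17 and -0.89. Of the mixture arrays, 0.5MAhR 3 stood well above the other 3, and 0.5MAhR 4 was below Control 8, which lies in the other column. The mean was -1.21 ± 0.32 (SD, n = 4) in controls and -0.55 ± 0.48 (SD, n = 4) in the mixture group. The difference of 0.66 (SE 0.22, 95% interval 0.16 to 1.17) is 1.58-fold, with adjusted p = 0.599. It was 0.43 in column 1, 0.89 in column 2, 0.47 (SE 0.20) without Control 6 and 0.43 without 0.5MAhR 3, with an unadjusted p under 0.05 each time. A second Me1 probe gave 0.64 (SE 0.23). The Cy3 signal at the Me1 probe differed by 0.029. Tkt, a transketolase of the pentose phosphate pathway, differed by 0.087 (SE 0.18), and by -0.100 without Control 6.

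**Figure D3:**
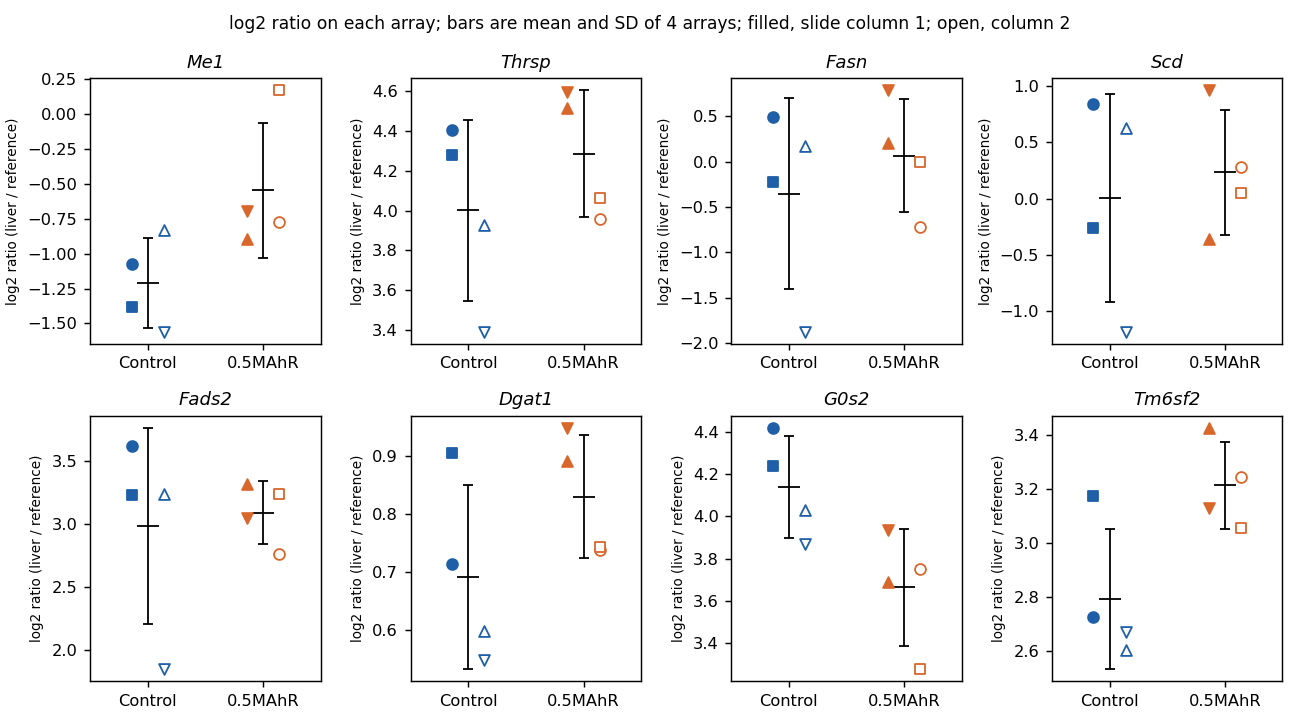
Points are the log2 ratios of liver over reference on each array for 8 genes, filled in slide column 1 and open in column 2, and bars are the mean and SD of the 4 arrays of a group. The open downward triangle is Control 6, which lies at -1.87 for Fasn and 1.85 for Fads2, while Me1 and G0s2 differ between the groups in both columns with Control 6 at -1.56 and 3.87.

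Elongation showed the same dependence on Control 6 for its most variable gene. Elovl6 extends palmitate to stearate. Its ratios were 0.48, -1.35, -0.47 and 0.20 on Control 5 to 8 and -0.095, 0.65, 0.61 and -0.19 on 0.5MAhR 1 to 4. Control 6 was the lowest array and Control 7 the next, and Control 5 and Control 8 lay within the mixture range. The difference was 0.53 (SE 0.36, adjusted p = 0.886), and 0.16 without Control 6. A second probe gave 0.25. Elovl2 and Elovl5, which act on polyunsaturated chains, differed by 0.13 (SE 0.16) and 0.088 (SE 0.15).

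The desaturases varied widely between arrays, and no member of the step differed by group past the threshold. Scd, the stearoyl-CoA desaturase that makes oleate, had ratios of 0.84, -1.19, -0.26 and 0.63 on Control 5 to 8 and of 0.28, 0.96, 0.051 and -0.36 on 0.5MAhR 1 to 4. The highest array was 0.5MAhR 2 and the lowest Control 6, with the other arrays mixed in order. The difference was 0.23 (95% interval -0.71 to 1.17, adjusted p = 0.950), and -0.18 without Control 6. Fads1, the delta-5 desaturase, had 1.65, 0.37, 1.46 and 1.70 on Control 5 to 8 and 1.12, 1.64, 1.60 and 1.73 on 0.5MAhR 1 to 4. Apart from Control 6, the control arrays lay inside the mixture range. The difference of 0.23 (SE 0.24, adjusted p = 0.923) became -0.059 without that array. Fads2, the delta-6 desaturase, went from 0.11 to -0.24, and its difference was -0.24 in column 1 and 0.45 in column 2. With Control 6 left out all 3 desaturases were lower in the mixture group, none with p under 0.05. With Control 8 left out all 3 were higher, by 0.55 for Scd, 0.47 for Fads1 and 0.31 for Fads2, Fads1 with an unadjusted p under 0.05.

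**Figure D4:**
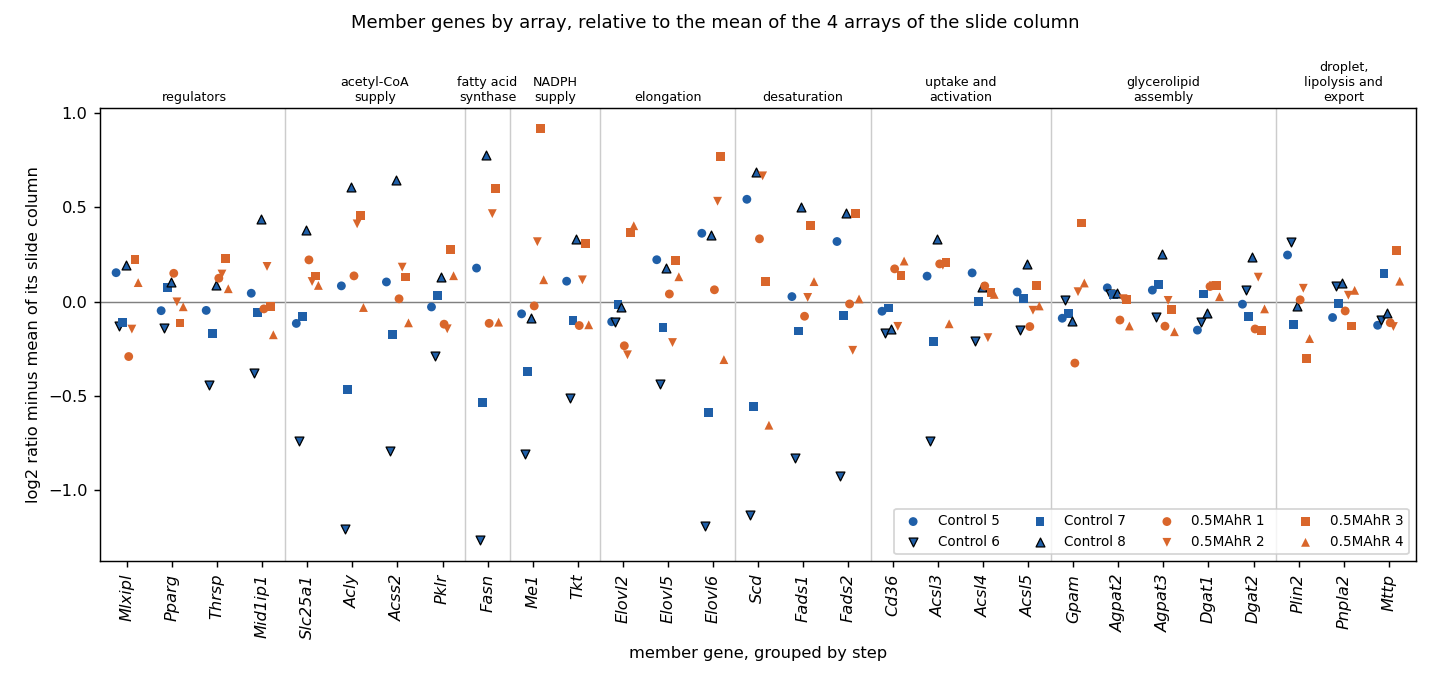
Each point is the log2 ratio of a member on an array minus the mean of the 4 arrays of its slide column, with members grouped by step, Control in blue and 0.5MAhR in orange. Control 6 (downward blue triangles) lies lowest from Slc25a1 to Acsl3 in most genes and reaches -1.27 for Fasn, while the points of Agpat2, Dgat1 and Pnpla2 lie close to 0.

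Of the uptake and activation genes, Cd36, a fatty acid translocase, had the smallest p. Its ratios were -1.26, -0.98, -1.24 and -0.95 on Control 5 to 8 and -0.64, -1.34, -0.67 and -0.99 on 0.5MAhR 1 to 4. In column 2 both mixture arrays were above both controls, and in column 1 the mixture arrays lay on either side of them. The difference was 0.20 (SE 0.089, adjusted p = 0.797), but the second Cd36 probe gave -0.13 and the mean of both probes 0.036. The acyl-CoA synthetases, which activate fatty acids, differed by 0.24 for Acsl3, -0.011 for Acsl4 and -0.057 for Acsl5. Acsl3 was at -0.0052 without Control 6 and at 0.42 without Control 8.

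By the median spread of its genes between arrays of one group (residual SD 0.122), glycerolipid assembly was the least variable step. Gpam, the mitochondrial enzyme that adds the first acyl chain to glycerol 3-phosphate, was well above background on 2 control and 3 mixture arrays and entered the test through the mixture arrays. Its ratios were 0.91, 0.47, 0.93 and 0.36 on Control 5 to 8 and 0.13, 1.05, 0.88 and 1.09 on 0.5MAhR 1 to 4. The mixture group held both the lowest and the highest array. The residual SD of Gpam, 0.239, was above the 90th percentile of all genes tested (0.223). The difference was 0.12 (SE 0.14, adjusted p = 0.925).

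The last step of triglyceride synthesis is catalysed by the enzymes of Dgat1 and Dgat2. Dgat1 had ratios of 0.71, 0.55, 0.91 and 0.60 on Control 5 to 8 and of 0.74, 0.95, 0.74 and 0.89 on 0.5MAhR 1 to 4. In column 2 both mixture arrays were above both controls, and in column 1 Control 7 lay between the mixture arrays. The difference was 0.14 (SE 0.068, adjusted p = 0.831), and 0.12 without Control 6. Dgat2 had 4.40, 4.78, 4.33 and 4.95 on Control 5 to 8 and 4.57, 4.54, 4.56 and 4.37 on 0.5MAhR 1 to 4. Both column 2 controls were above all mixture arrays, while Control 5 was below 3 of them and Control 7 below all 4. The difference was -0.10 (SE 0.095, adjusted p = 0.915). The arrays of column 1 gave 0.092 and those of column 2 gave -0.30. Cy3 at the Dgat2 probe differed by 0.087 (unadjusted p under 0.05, adjusted p = 0.999), and its part in that value was not tested.

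The acyltransferases of the second acylation gave small negative differences. Agpat2 differed by -0.100 (SE 0.065, adjusted p = 0.877), and Agpat3 by -0.16 (SE 0.086, adjusted p = 0.861). Agpat3 reached -0.23 (SE 0.081) without Control 6. Neither passed the adjusted threshold under any alternative tried. At an unadjusted p under 0.05, both were lower in the authors' deposited ratios (6.31% of all genes in either direction). Agpat3 was also lower at that level in Cy5 alone (7.12%) and without Control 6 (5.71%).

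Of the genes of lipid droplets, lipolysis and export, Plin2 had the smallest p. Its protein coats the droplets of hepatocytes, and its RNA is a known follower of fatty acid load. Ratios were 0.64, 1.46, 0.27 and 1.13 on Control 5 to 8 and 1.16, 0.47, 0.85 and 0.20 on 0.5MAhR 1 to 4. Column 2 arrays of both groups were above column 1 arrays, and Control 6, low for the synthetic genes, was the highest array for Plin2. The difference was -0.21 (SE 0.12, adjusted p = 0.868), and -0.12 without Control 6. Pnpla2, adipose triglyceride lipase, differed by -0.042 (SE 0.075) and Mttp, which loads triglyceride onto apolipoprotein B, by 0.067 (SE 0.11).

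Relative to the reference RNA, control livers were above 0 in mean log2 ratio for 21 of the 29 members (72.4%, against 54.1% of all genes). Dgat2, Elovl2, Thrsp, Mttp and Pklr were the highest, with control means from 3.20 to 4.62. Pparg, Me1 and Cd36 were the lowest, with -1.30, -1.21 and -1.11. A ratio compares one gene between liver and reference only, and sets no gene against another.

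The spread between arrays of one group, after slide column was fitted, was wide for this pathway. The residual SD exceeded the 90th percentile of all genes tested for 16 of the 29 members (55.2%, against 10%), and for 11 (37.9%) when Control 6 was left out of the fit. The median residual SD was 0.239 log2 units over the members and 0.120 over all genes. By step it was 0.537 for desaturation, 0.418 for acetyl-CoA supply and 0.290 for elongation, against 0.122 for glycerolipid assembly. Scd (0.806), Fasn (0.746), Elovl6 (0.697) and Acly (0.627) had the widest spread, and Agpat2 (0.0588) and Dgat1 (0.0677) the narrowest. A difference of Scd or Fasn therefore had to be several times that of Dgat1 to stand out.

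**Figure D5:**
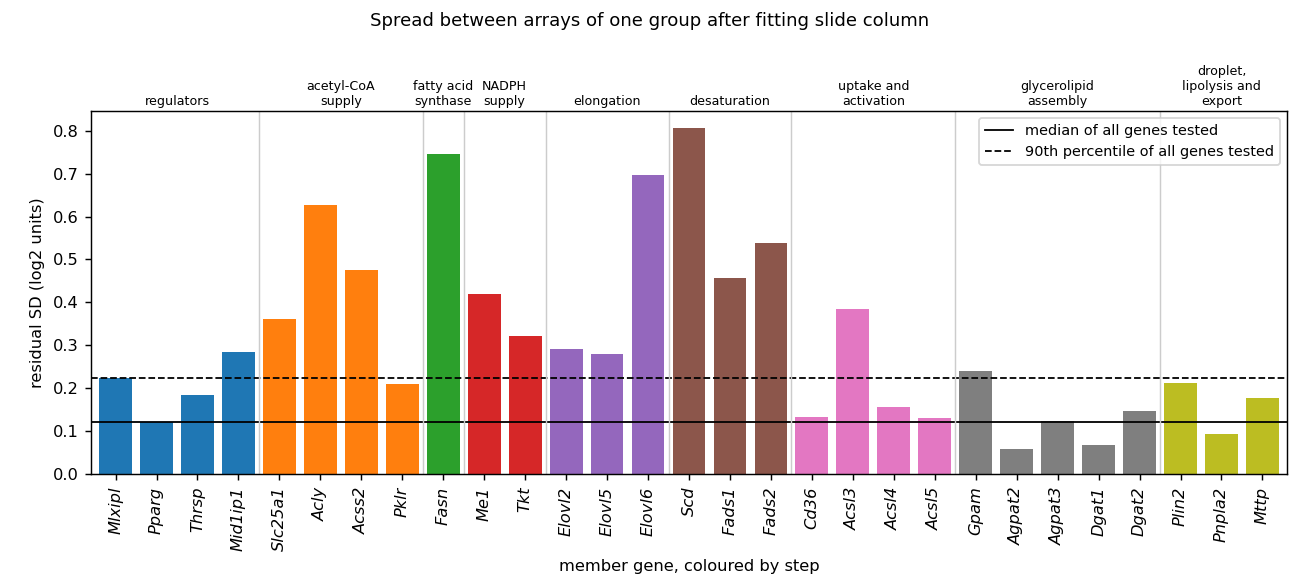
Bars are the residual SD of each tested member between arrays of one group after slide column was fitted, in log2 units, with lines at the median (0.120) and the 90th percentile (0.223) of all genes tested. The bars of Scd, Fasn, Elovl6 and Acly exceed 0.6, and those of Agpat2 and Dgat1 lie below the median line.

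At the members' probes the reference channel gave no difference past an adjusted p of 0.05 (0.00946% of all genes). At an unadjusted p under 0.05, Cy3 was higher on mixture arrays for Thrsp, Dgat2 and Pparg (10.3%, against 1.71%) and lower for Scd (3.45%, against 1.92%). The Cy3 differences of Pparg and Scd were 0.079 and -0.068.

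Of 50 other genes of the pathway, 39 were tested, 18 with a difference above 0 (46.8% of all genes) and 21 below, and their median was -0.0031. None passed the adjusted threshold. At an unadjusted p under 0.05, Tm6sf2 and Mgll were higher (3.5% of all genes) and G0s2 was lower (2.84%), so that 3 of 39 stood against 6.34% of all genes. G0s2 encodes an inhibitor of adipose triglyceride lipase. Its ratios were 4.42, 3.87, 4.24 and 4.03 on Control 5 to 8 and 3.75, 3.94, 3.28 and 3.69 on 0.5MAhR 1 to 4. All mixture arrays were below the controls of their own column, and 0.5MAhR 2 was above Control 6 of the other column. The difference was -0.47 (SE 0.11, adjusted p = 0.369), and -0.51 without Control 6. Tm6sf2, which takes part in the lipidation of secreted lipoproteins, differed by 0.42 (SE 0.11, adjusted p = 0.416), and Mgll, monoacylglycerol lipase, by 0.15 (SE 0.065). Apob (-0.17), Lpcat3 (0.14) and Scd2 (0.15) had the next smallest p.

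Genes that respond to feeding and fasting were given beside these because hepatic lipogenesis follows food intake. Of 13 such genes 11 were tested, and all 11 had differences below 0, as had 5620 of all 10566 genes tested. Their median was -0.23, and -0.27 without Control 6. None passed the adjusted threshold, and 2 were lower at an unadjusted p under 0.05 (2.84% of all genes). Angptl4, a fasting-induced inhibitor of lipoprotein lipase, differed by -0.30 (SE 0.12). On Control 6 this list had a median of 0.12 relative to its column, and on Control 8 of 0.26. The sterol genes had differences above 0 for all 10 (46.8% of all genes), with a median of 0.48. Without Control 6 this was so for 2 of 10 (47.1% of all genes), with a median of -0.084. The sterol genes were not summarised without Control 8, on which their median was 0.89 relative to the column. No sterol gene had an unadjusted p under 0.05. The part of food intake before sampling in these differences was not tested.

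Markers of other cells were compared as well. The 6 Kupffer cell markers had a median difference of 0.14, with 6 above 0, and the 6 hepatocyte markers one of -0.11, with 6 below 0. Of all 10566 genes tested, 4946 were above 0 and 5620 below. On Control 6 the medians of these lists relative to the column were -0.083 and 0.14. Pancreatic acinar markers were not well above background on enough arrays to be tested. The 3 tested adipocyte markers (Cfd, Retn and Fabp4) had differences from -0.14 to -0.078. Relative to the column, their median was -0.059 on Control 6 and 0.24 on Control 8. No marker passed the adjusted threshold. At an unadjusted p under 0.05, the hepatocyte gene Cps1 was lower (-0.35, 2.84% of all genes) and the stellate cell gene Des higher (0.19, 3.5% of all genes). Des was well above background on 2 control and 3 mixture arrays and entered the test through the mixture arrays. Their part in the values above was not tested.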

How the data were processed

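Per the file headers, the deposited spot intensity values were written by Agilent Feature Extraction 11.0.1.1, and the median foreground and background signals were used. The deposited table of log2 ratios (Cy5 over Cy3) from the authors served as an alternative; it matched loess ratios without background correction (r between 0.9986 and 0.9993 on the arrays, medians -0.0389 to -0.0326), with its centring unknown. In R 4.3.3 with limma 3.58.1, signals were corrected by normexp (offset 50) and loess-normalised within arrays, control spots having no weight. Spots the scanner marked as outliers were dropped. Testing required Cy5 well above background on 3 or more of the 4 arrays of a group, and the brightest probe stood for its gene. Names came from RefSeq accessions. The fit had slide column and group as terms, with eBayes and Benjamini-Hochberg adjustment over all 10566 genes (two-sided, threshold 0.05). All p-values are limma's. Cy3 was tested alone after quantile normalisation. The fit was tested on simulated data. The number of arrays limits precision.

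Members, gene lists, the slide column term and the genes named were chosen with earlier results of these data known. Values on every array were given for 13 core genes where measured (Srebf1, Mlxipl, Fasn, Acaca, Acly, Scd, Elovl6, Me1, Gpam, Dgat2, Pnpla3, Thrsp and Plin2), for members with unadjusted p under 0.05 and for the smallest p of each step. Of the other pathway genes, the 6 of smallest p were named. Array values of G0s2, and the names Cps1 and Des, were added after their values were seen. Alternatives changed the slide terms, background correction, normalisation, signals, channel, prior, filter, probe rule and arrays. The other arrays of the 72 in the study were not analysed here. Some genes of the feeding and sterol lists are not reported here by name.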

Additional observations from a re-analysis of the deposited data

Results flagged for a closer look

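Each group of 4 arrays was searched for an array far from the other 3, by the gap to its nearest neighbour over the whole range of the group. Of 70 such tests, over 35 genes in both groups, 2 passed Dixon's critical value, where chance alone passes about 1 in 20. Acsl5 on Control 6 had a log2 ratio of 1.36, and the next control array stood at 1.71. Dgat2 on 0.5MAhR 4 had 4.37, and the next mixture array stood at 4.54. The low values of Fasn, Acly and the desaturases on Control 6 did not pass that test. It took the 4 arrays of a group over both slide columns, so column differences entered the range. With 4 arrays it cannot show that those values are usual.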

How the results depend on the processing

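The replicate numbers gave no pairing, since the groups share none (5 to 8 and 1 to 4). Each slide row held 1 array of each group, and a fit with slide row as a block was run. No member passed the adjusted threshold under any of the 22 alternatives, and the median difference of the members ran from -0.050 to 0.16. The count of members at an unadjusted p under 0.05 was 2, and became 1 with no slide column in the fit, with normexp offset 16, without background correction, with median centring, with processed signals and in slide column 1 alone, 0 with slide row as a block and 4 in the deposited value table. Of those 4, Thrsp and Me1 were higher and Agpat2 and Agpat3 lower. Leaving out 1 array gave 1 to 8. The share of all genes at that level moved too, from 0.719% with slide row as a block and 1.53% with no slide column to 8.14% with processed signals, so these counts alone show nothing about the members. Of all genes, 5 passed, against 1 with no slide column, 0 with slide row as a block, with processed signals and in column 2 alone, 2 in column 1 alone, 3 with median centring, with a trended robust prior and with probes well above background on all 8 arrays, and 14 in Cy5 alone. Leaving out 1 array gave 1 to 11.

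Differences of some single genes changed sign. With median centring, Pparg was at -0.00059, Mid1ip1 at 0.0072 and Acsl4 at 0.0070. Pklr was at -0.054 with processed signals and Pparg at -0.014 in the deposited table. In slide column 1 alone, Pparg was at -0.028, Mid1ip1 at 0.011, Pklr at -0.0066, Tkt at -0.0072, Elovl5 at -0.085, Fads2 at -0.24, Dgat2 at 0.092, Pnpla2 at 0.094 and Mttp at -0.024, and in column 2 alone Acsl4 was at 0.13. Leaving out 1 array gave ranges across 0 for 17 genes: Mlxipl (-0.16 to 0.049), Pparg (-0.055 to 0.051), Mid1ip1 (-0.18 to 0.14), Acss2 (-0.19 to 0.39), Pklr (-0.025 to 0.15), Tkt (-0.100 to 0.24), Elovl2 (-0.0097 to 0.26), Elovl5 (-0.069 to 0.19), Scd (-0.18 to 0.55), Fads1 (-0.059 to 0.47), Fads2 (-0.24 to 0.31), Acsl3 (-0.0052 to 0.42), Acsl4 (-0.098 to 0.063), Acsl5 (-0.13 to 0.010), Gpam (-0.021 to 0.28), Pnpla2 (-0.085 to 0.00092) and Mttp (-0.027 to 0.14). Apart from the arrays left out, the cause of these changes was not tested. Signal over background left 29 of the 33 genes with a named probe, without the acetyl-CoA carboxylases.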
